A study of Mus musculus with 15 samples.

Results

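The genes described here belong to 9 families of developmental transcription factors outside the Hox clusters: Pax, Lhx, Nkx, Tbx, Dlx, Irx, Sox, Fox and the sine oculis homeobox genes. Members were taken by name, as the gene names on the arrays give them, and not by any measured value. Sox2, Sox7 and Sox17 were left out by that rule, and Paxip1, Tbxas1, Tbxa2r and Dlx6as were left out because their descriptions are not those of transcription factors. The rule found 114 member genes of 28359 gene names on the arrays. All 114 were on the expression array, by 174 of its 41174 probes, and 93 of them were on the promoter arrays, where 524 of 80567 probes tiled 102 of 17432 regions. Fox was the largest family with 38 genes, followed by Sox with 17, Tbx with 13, Nkx with 11, Pax with 9, Lhx with 8 and Dlx, Irx and the sine oculis homeobox genes with 6 each.

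These families encode proteins that bind DNA and pattern the embryo: Pax, Lhx, Nkx, sine oculis, Dlx and Irx proteins carry homeodomains or related paired domains, Tbx proteins a T-box, Sox proteins an HMG box and Fox proteins a forkhead. Most are silent or low in mouse embryonic stem cells and are switched on in restricted lineages, such as Pax7 in muscle satellite cells or Nkx2-5 in the heart. Their promoters often lie in CpG islands, many of which are held by Polycomb complexes in pluripotent cells, and CpG islands are as a class poor in DNA methylation.

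The study set TKO mouse embryonic stem cells, which are deficient in DNA methylation and are known as a triple knockout of the DNA methyltransferases Dnmt1, Dnmt3a and Dnmt3b, against wild-type J1 cells. Both lines were grown without feeders for 2 passages in medium with serum and LIF. Each line is a single line, and the replicates were different passages, so p-values here measure the spread between passages of this pair of lines and not between independent knockouts. Methylated DNA immunoprecipitation (MeDIP) captures DNA fragments with an antibody against methylated cytosine, and each array compared the MeDIP material of both lines in 2 colours. There were 7 arrays for each of 2 promoter array designs (part 1 and part 2), and 3 expression arrays that compared the RNA of both lines, the second with exchanged dyes.

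The label check on the expression arrays gave log2(TKO/J1) of -2.50 ± 0.19 for Dnmt3b (SD, n = 3 arrays), -2.36 ± 0.18 for Dnmt3a and -1.07 ± 0.25 for Dnmt1 (SD, n = 2 arrays each), although a probe outside a deleted exon checks nothing. The direction of the RNA ratio rests on the likely order of the dyes, J1 in Cy5 on arrays 1 and 3. On the MeDIP arrays all labels put TKO in Cy5 and J1 in Cy3, with no exchange. The MeDIP log2(J1/TKO) as labelled was nevertheless -0.65 ± 0.19 at the promoter of Asz1, -0.72 ± 0.15 at that of Dppa3 and -0.34 ± 0.11 at that of Sycp3 (SD, n = 7 arrays), and promoters of such germ-cell genes are known to be methylated in wild-type cells. The sides are therefore called "labelled TKO" and "labelled J1", and a dye bias cannot be told apart from a difference between the lines. Between arrays of the same kind, the ratios of all probes correlated with r of 0.34 to 0.79 on part 1, 0.39 to 0.73 on part 2 and 0.73 to 0.78 on the expression arrays. On expression array 3, 8386 spots were uneven and were left out, against 11 and 57 on the other arrays, so 7 of the members measured have only 2 values.

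To show what such promoters look like, the 250 bases before the annotated start are printed for 6 members: the 3 with the lowest and the 3 with the highest MeDIP ratio among the named members with 1 start in RefSeq. CpG dinucleotides are in capitals, and the sequences are those of RefSeq on build GRCm38.p6, given 5′ to 3′ on the strand of the gene.
Tbx18 (chr9:87731261-87731510, minus strand): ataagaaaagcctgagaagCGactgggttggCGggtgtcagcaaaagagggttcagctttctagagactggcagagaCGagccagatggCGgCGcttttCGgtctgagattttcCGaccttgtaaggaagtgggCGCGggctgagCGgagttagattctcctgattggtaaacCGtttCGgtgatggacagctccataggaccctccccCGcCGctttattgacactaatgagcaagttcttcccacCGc
Lhx4 (chr1:155742028-155742277, minus strand): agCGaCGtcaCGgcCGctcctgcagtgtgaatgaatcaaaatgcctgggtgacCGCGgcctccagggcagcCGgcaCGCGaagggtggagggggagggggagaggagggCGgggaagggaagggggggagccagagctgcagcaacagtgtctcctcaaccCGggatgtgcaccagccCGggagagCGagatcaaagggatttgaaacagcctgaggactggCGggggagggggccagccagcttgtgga
Foxd1 (chr13:98353995-98354244, plus strand): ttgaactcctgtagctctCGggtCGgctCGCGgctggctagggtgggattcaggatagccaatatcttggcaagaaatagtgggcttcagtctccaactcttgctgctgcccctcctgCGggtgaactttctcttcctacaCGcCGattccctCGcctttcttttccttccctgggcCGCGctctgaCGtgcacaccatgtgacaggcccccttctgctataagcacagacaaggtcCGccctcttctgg
Foxo1 (chr3:52268087-52268336, plus strand): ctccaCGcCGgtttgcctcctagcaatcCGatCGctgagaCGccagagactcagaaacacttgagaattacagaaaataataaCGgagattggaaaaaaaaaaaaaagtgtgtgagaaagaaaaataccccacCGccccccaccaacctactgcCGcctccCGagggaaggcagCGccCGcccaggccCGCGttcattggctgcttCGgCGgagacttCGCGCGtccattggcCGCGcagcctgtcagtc
Pax7 (chr4:139832969-139833218, minus strand): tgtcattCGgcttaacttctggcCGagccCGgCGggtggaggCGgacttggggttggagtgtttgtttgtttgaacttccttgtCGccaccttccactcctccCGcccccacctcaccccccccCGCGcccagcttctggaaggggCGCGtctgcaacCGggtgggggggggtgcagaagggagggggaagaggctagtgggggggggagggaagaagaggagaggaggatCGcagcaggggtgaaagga
Nkx6-1 (chr5:101664712-101664961, minus strand): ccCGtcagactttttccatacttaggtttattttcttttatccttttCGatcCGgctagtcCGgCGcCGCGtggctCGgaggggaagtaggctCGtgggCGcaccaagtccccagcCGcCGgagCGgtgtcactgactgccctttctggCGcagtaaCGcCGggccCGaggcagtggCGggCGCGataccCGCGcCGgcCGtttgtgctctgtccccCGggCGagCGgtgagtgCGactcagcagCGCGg

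These windows held 15 CpGs for Tbx18, 14 for Lhx4, 12 for Foxd1, 20 for Foxo1, 13 for Pax7 and 30 for Nkx6-1, against a median of 6 over the 32851 promoters of the table in windows of the same length. As many CpGs as in Foxd1 were found in 33.5% of all those windows, and as many as in Nkx6-1 in 5.94%. All 6 windows were thus above the median of the table in CpG count. By their distance from the start, they do not reach the upstream probes from which the low mean ratios of Tbx18 and Foxd1 came, as described below. The table gave a promoter for only 78 of the 114 members, or 68.4%, so a comparison of CpG content over the members as a group is void.

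Most members were not well above background on all 3 expression arrays in either line. In TKO cells 29 of 114 members, or 25.4%, were well above background on all 3 arrays by at least 1 probe, and the same number were in J1 cells; over all genes the shares were 40.4% in TKO and 42.1% in J1. For 79 members neither line passed on all 3 arrays. On array 3, 38.6% of spots in the green and 39.6% in the red channel were well above background. The shares were 66.8% and 59.1% on array 1, and 58.9% and 52.4% on array 2. Some of the 79, such as Foxa2, Tbx1 and Dlx2, were well above background in both lines on 2 of 3 arrays. The part of array 3 in these counts was not tested. No Dlx gene passed in either line, and of the 9 Pax genes Pax8, a regulator of thyroid and kidney, passed in J1 only. The lines did not differ by call in Pax8, which had a log2(TKO/J1) of 0.04 ± 0.03 (SD, n = 3, limma adjusted p = 0.752). Its mean log2 signals were 6.12 in TKO and 6.09 in J1. In bulk RNA, fewer cells that express a gene and less RNA per cell cannot be told apart.

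In TKO cells, 14 of the 35 members tested were higher and 6 were lower (limma, adjusted p under 0.05 over 12015 genes). Over all genes tested, 16.9% were higher and 15.8% were lower, so the share of members that were lower was near the background. Of those 35, 23 passed the filter on dim probes in both lines, 6 in TKO only and 6 in J1 only. A gene that passed in TKO only had to tend upward: 4 of the 6 such members were higher, and 56.5% of all genes of that kind were. Of the 23 that passed in both lines, 10 were higher and 6 lower, against 16.7% and 15.9% of all genes of that kind. When each array was centred on its median in place of loess, 1 member, Tbx21, was still higher, none was lower, and 935 genes in all passed where 3939 had.

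**Figure D1:**
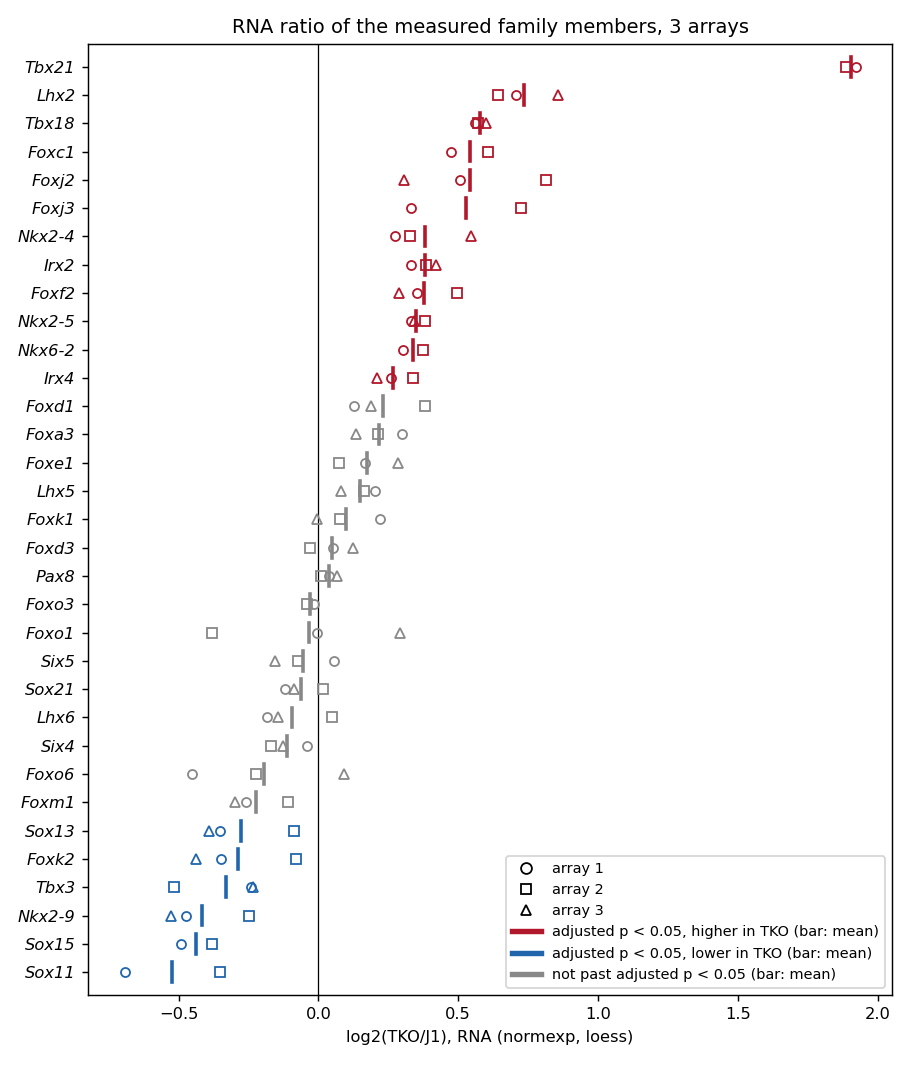
RNA log2(TKO/J1) of 33 of the 35 members measured, 1 row per gene. Open symbols are the 3 arrays, with no symbol where an uneven spot was left out, vertical bars are means, and colour gives the call at adjusted p under 0.05; Tbx21 stands at 1.90, apart from the next gene, Lhx2, at 0.73.

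Of the T-box genes, 3 of 13 could be tested, and Tbx21 and Tbx18 were higher while Tbx3 was lower. Tbx21, which directs T-helper cell fate, had log2(TKO/J1) of 1.92 and 1.89 on arrays 1 and 2 and no value on array 3. Its mean of 1.90 ± 0.02 (SD, n = 2; adjusted p = 7.44e-06 by limma) made it the only member among the 35 tested past a 2-fold change, where 1.62% of all genes rose and 0.716% fell by as much. Its channel signals were 8.60 and 8.64 on the log2 scale in TKO, against 6.68 and 6.75 in J1, so the lines did not overlap. Foxa2 and Tbx1, singled out after their values were seen, were also past 2-fold but stayed out of the test, because their probes were well above background in both lines on 2 of 3 arrays and gave no ratio on array 3. Foxa2, a forkhead gene of endoderm that also stands in the primitive endoderm marker list, had ratios of 1.84 and 1.70 (limma adjusted p = 0.00307 with no filter on dim probes). Tbx1, a gene of the pharyngeal arches, had ratios of 1.13 and 1.12 (limma adjusted p = 0.00423 with no such filter). Tbx18, a gene of the epicardium and the ureter, had ratios of 0.56, 0.57 and 0.60, with a mean of 0.58 ± 0.02 (SD, n = 3; limma adjusted p = 0.000602). Its probe was well above background in J1 on 2 of 3 arrays, and its second probe was not well above background in either line. Tbx3, which is expressed in embryonic stem cells themselves and later in limb and mammary gland, had ratios of -0.24, -0.52 and -0.23 (mean -0.33 ± 0.16, SD; limma adjusted p = 0.0195). That call was lost without array 2 (adjusted p = 0.123, limma) and with Agilent's processed signals (adjusted p = 0.0713, limma).

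Among the homeodomain families, Lhx2, which acts in forebrain, eye and hair follicle, had ratios of 0.71, 0.64 and 0.86 (mean 0.73 ± 0.11, SD, n = 3; limma adjusted p = 0.000223), with signals well above background in both lines on all arrays. The other Lhx genes measured, Lhx5 at 0.15 ± 0.06 and Lhx6 at -0.09 ± 0.12, did not pass (limma adjusted p = 0.187 and 0.434). Of the sine oculis homeobox genes, Six4, at -0.11 ± 0.07, and Six5, at -0.06 ± 0.11, did not pass (SD, n = 3 each; limma adjusted p = 0.321 and 0.644), and both were measured through J1 only.

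Of the Nkx genes, Nkx2-4, Nkx2-5 and Nkx6-2 were higher and Nkx2-9 was lower. Nkx2-5, a factor of the heart field, had ratios of 0.33, 0.38 and 0.34 (mean 0.35 ± 0.03, SD, n = 3; limma adjusted p = 0.00836), and Nkx2-4 averaged 0.38 ± 0.14. A second Nkx2-4 probe, which did not pass the filter on dim probes, had a mean of -0.08. Nkx6-2, which patterns the ventral neural tube, averaged 0.34 ± 0.05 on 2 arrays (limma adjusted p = 0.0348; 0.0853 with Agilent's processed signals). Nkx2-9, a gene of the ventral neural tube, had ratios of -0.47, -0.25 and -0.53 (mean -0.42 ± 0.15, SD; limma adjusted p = 0.0061). The 3 higher genes and the lower one each kept 1 sign on every array measured. Both Irx genes tested were higher: Irx2 by 0.38 ± 0.04 and Irx4, a gene of the heart ventricle, by 0.27 ± 0.07 (SD, n = 3 each; limma adjusted p = 0.00582 and 0.0302). Irx2 had ratios of 0.33, 0.39 and 0.42 on the 3 arrays. Without array 3 another Irx2 probe was the brightest, at 0.19, and it did not pass (adjusted p = 0.171, limma). Irx4 was well above background in J1 on 2 of 3 arrays and entered the test through TKO, and it no longer passed without array 1 (adjusted p = 0.0879, limma) or array 2 (adjusted p = 0.13, limma).

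The Fox family had 15 of its 38 genes tested, of which 5 were higher and 1 lower. Foxc1, a regulator of eye and vascular mesenchyme, had ratios of 0.47 and 0.61 (mean 0.54 ± 0.09, n = 2; limma adjusted p = 0.00496), and entered the test through TKO, since in J1 it was well above background on 2 of 3 arrays. Foxj2 averaged 0.54 ± 0.26 (n = 3) and Foxj3 0.53 ± 0.28 (n = 2), with wider gaps between arrays: Foxj2 had 0.51, 0.81 and 0.30, and Foxj3 0.33 and 0.72. Other Foxj3 probes, which did not pass the filter on dim probes, had means of 0.10 and 0.00. Foxf2, a gene of gut and palate mesenchyme, was not well above background in J1 on any of the 3 arrays. Its measured ratio was 1.30-fold higher in TKO (mean log2 signals 6.33 in TKO and 5.95 in J1, limma adjusted p = 0.00753). Without array 2 Foxf2 no longer passed (adjusted p = 0.0567, limma). Foxk2 averaged -0.29 ± 0.19 (limma adjusted p = 0.0393), but its probes disagreed, at -0.29 and 0.10, and it did not pass with the mean of both (adjusted p = 0.41, limma), without array 1 (0.153) or without array 3 (0.164). The forkhead genes of insulin and growth signalling, Foxo1 at -0.03 ± 0.34, Foxo3 at -0.03 ± 0.02 and Foxo6 at -0.20 ± 0.27, did not pass, and on Foxo1 and Foxo6 the arrays fell on both sides of 0. Foxd3, a forkhead gene of pluripotent cells and neural crest, was at 0.05 ± 0.08 (limma adjusted p = 0.687).

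Of the 17 Sox genes, 4 were measured, 3 were lower and 0 were higher. Sox11, a factor of neural progenitors, had ratios of -0.69 and -0.35 (mean -0.52 ± 0.24, n = 2; limma adjusted p = 0.0101), and 5 of its probes that passed the filter had means between -0.52 and -0.35. Sox15, known in embryonic stem cells and muscle precursors, had -0.49 and -0.38 (mean -0.44 ± 0.08, n = 2). Sox13 averaged -0.28 ± 0.17 (limma adjusted p = 0.0413) and no longer passed with a dye term (adjusted p = 0.0911, limma), without array 1 (0.166) or without array 3 (0.155). Sox21 was at -0.06 ± 0.07. Other Sox21 probes, which did not pass the filter on dim probes, had means of 0.35 and -0.03. A difference between the families was not tested.

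Many of these ratios came from dim probes. The lowest signal among probes well above background was 5.83 to 5.92 on the log2 scale in TKO and 5.84 to 5.91 in J1, and Tbx18, Foxf2 and Irx4 lay within 1 unit of that in both lines. The offset of 50 that was added to both channels pulls ratios of such dim probes towards 0. With Agilent's processed signals, which carry no such offset, log2(TKO/J1) of Tbx21 was 2.77. Markers of other cell types moved as well: all 12 primitive endoderm markers tested were higher in TKO, as were 9 of 10 trophoblast markers, 6 of 10 fibroblast markers, 2 of 4 neural markers, 1 of 3 mesoderm markers and 1 of 9 embryonic stem cell markers. Of these, Afp and Ttr of primitive endoderm and Prl4a1 of trophoblast entered the test only through TKO, the line in which they were high, and J1 was well above background on 2, 0 and 0 of 3 arrays. Lower in TKO were 1 fibroblast marker, 1 neural marker and 4 embryonic stem cell markers, and 0 of the primitive endoderm, trophoblast and mesoderm markers tested. Of these lists, 12 of 18 primitive endoderm and 10 of 17 trophoblast markers on the array could be tested. Among all genes tested, 16.9% were higher in TKO and 15.8% lower. The summed signal of the primitive endoderm markers was 7377 to 14212 units in TKO and 4101 to 7220 in J1, and that of the trophoblast markers 34601 to 45469 in TKO and 8460 to 8901 in J1. Their part in the members' ratios was not tested.

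Lists of related genes that are no members were read from the same fit. Of other developmental transcription factors, 77 were on the array, 29 were tested, 12 were higher and 3 lower; their log2(TKO/J1) had a median of 0.18, beside 0.15 for the 35 members and -0.01 for all genes tested. Among the higher ones were Gata3 at 2.01 ± 0.27 (n = 2), Gata6 at 1.57 ± 0.09 (n = 3), and Pitx1 at 1.34 ± 0.10 (n = 2). Of partners and co-repressors 11 were tested, 4 were higher, among them Lmo1 at 0.90 ± 0.08 and Tle2 at 0.50 ± 0.01, and Tle4 was lower at -0.83 ± 0.21 (n = 3 each). Of the Polycomb genes 24 were tested, 6 were higher, with Kdm2b at 0.63 ± 0.19, and 4 lower, with Cbx7 at -0.92 ± 0.23, Phc1 at -0.86 ± 0.10 and Cbx6 at -0.71 ± 0.00 (n = 3 each). The median was 0.07 over the Polycomb genes and 0.15 over the partners and co-repressors. Beside these counts, 16.9% of all genes tested were higher and 15.8% lower. The lists were chosen with earlier results of these data known, and their medians are descriptions.

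On the promoter arrays, 96 of the 102 member regions had at least 3 probes and were tested. The other 6, of Foxd2, Foxj3, Six3 and second regions of Sox1, Six4 and Tbx20, had 1 or 2 probes. At adjusted p under 0.05 and any size (limma, 14666 regions), 12 member regions had ratios towards labelled TKO, beside a background of 31.2% of all regions, and 35 towards labelled J1, beside 25.7%. The median log2(J1/TKO) was 0.05 over the members, with quartiles at -0.03 and 0.11, and -0.00 over all regions, with quartiles at -0.15 and 0.09. On each of the 14 arrays the median of the members was above that of all regions, at 0.02 to 0.08 against -0.02 to 0.01. With the dyes exchanged, the 2 counts change places. With normexp background correction these counts were 10 towards labelled TKO and 13 towards labelled J1, while 4459 regions passed in all, where 8355 had.

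**Figure D2:**
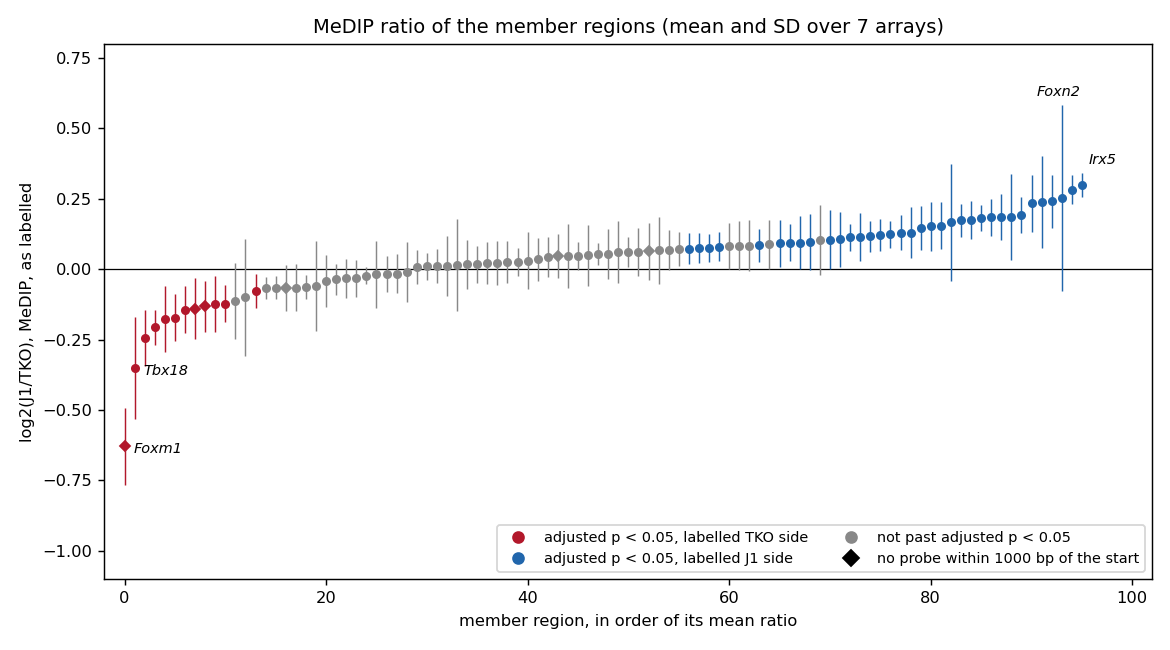
MeDIP log2(J1/TKO) as labelled for the 96 member regions tested, in order of the mean; points are means and bars SDs over 7 arrays, diamonds are regions with no probe within 1000 bp of the start. All means but that of the Foxm1 gene-body region lie within 0.5 of 0.

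The ratios were small: 1 member region passed with a mean at least 0.5 from 0, on the labelled TKO side, where 2.63% of all regions did, and none on the labelled J1 side, where 0.0682% did. That region was no promoter in position. It held 3 probes at 4087 to 4574 bp downstream of the start of Foxm1, a gene that drives transcription of mitotic genes, and its ratio ranged from -0.84 to -0.46 over the 7 arrays with a median of -0.61 (mean -0.63 ± 0.14, SD; limma adjusted p = 7.35e-06). All 7 arrays were below 0. The region at the Foxm1 start was at -0.02 ± 0.12. With normexp correction the 3 downstream probes had ratios of -0.22 ± 0.13, -0.33 ± 0.20 and -0.45 ± 0.12, all below 0 but under 0.5 in size. Foxm1 RNA was at -0.22 ± 0.10 and did not pass (limma adjusted p = 0.0665).

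On the labelled TKO side, Tbx18 had the lowest ratio of the regions with a probe within 1000 bp of the start, from -0.67 to -0.09 with a median of -0.32 (mean -0.35 ± 0.18, SD, n = 7; limma adjusted p = 0.000432). Lhx4, a gene of the pituitary and motor neurons, ranged from -0.43 to -0.14 (mean -0.24 ± 0.10; limma adjusted p = 0.000321). All 7 arrays were below 0 for both promoters. So they were for Foxd1, a gene of kidney stroma, at -0.17 ± 0.08, for Tbx21 at -0.14 ± 0.08, for Foxn1, the factor of thymic epithelium, at -0.12 ± 0.06, and for 1 of the 2 Foxp2 regions, at -0.18 ± 0.12. That Foxp2 region had probes at -880 to -50 bp and a probe listed at 284823 bp. Since regions were split at gaps over 2000 bp, these distances refer to different annotated starts. The other Foxp2 region lay on the labelled J1 side, at 0.17 ± 0.21. The region shared by the names Sox18 and Tcea2, whose nearest probe is at -7779 bp from the Sox18 start, was at -0.13 ± 0.09, while the region at the start of Sox18, a gene of lymphatic endothelium, was at 0.05 ± 0.11. With normexp correction Tbx18 was at 0.032 and Foxd1 at 0.014, and neither passed (limma adjusted p = 0.751 and 0.869). Tbx21 was at -0.014 over the probes above background in both channels (limma adjusted p = 0.722).

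On the labelled J1 side, Irx5 had the highest ratio, from 0.25 to 0.36 with a median of 0.28 (mean 0.30 ± 0.04, SD, n = 7; limma adjusted p = 1.99e-05). Nkx6-1, a factor of pancreatic beta cells and motor neurons, ranged from 0.23 to 0.37 (mean 0.28 ± 0.05; limma adjusted p = 3.15e-05). Pax7, the satellite cell factor, ranged from 0.13 to 0.42 (mean 0.24 ± 0.09; limma adjusted p = 0.000309). All 7 arrays were above 0 for these promoters, and also for Six4 at 0.24 ± 0.16, Foxo1 at 0.23 ± 0.10, Pax1, a gene of the sclerotome, at 0.19 ± 0.06, Sox12 at 0.18 ± 0.08, Foxh1, which works with Smad proteins in Nodal signalling, at 0.18 ± 0.07, Pax2, a gene of kidney and optic stalk, at 0.18 ± 0.05, and Tbx3 at 0.18 ± 0.07. Foxn2 had a mean of 0.25 but an SD of 0.33 and a range of -0.36 to 0.69 (limma adjusted p = 0.0409). With normexp correction the number of calls fell more on this side than on the labelled TKO side, by the counts given above. By family, 2 of 11 T-box, 5 of 30 Fox, 2 of 10 Nkx, 2 of 16 Sox and 1 of 6 Lhx regions lay on the labelled TKO side, and 0 of the Pax, Irx, Dlx and sine oculis regions, where 31.2% of all regions did. On the labelled J1 side lay 3 of 11 T-box, 12 of 30 Fox, 3 of 10 Nkx, 4 of 16 Sox, 2 of 6 Lhx, 5 of 10 Pax, 3 of 5 Irx, 1 of 4 Dlx and 2 of 4 sine oculis regions, where 25.7% of all regions did, and 2 of the 3 Irx regions are on chromosome 8. These families hold few regions each, and their shares were not tested.

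Of the member regions, 4 are on chromosome 8, where the median ratio of all 758 regions was 0.10, against -0.01 over the 13908 regions of other chromosomes. Beside Irx5, these were Irx3 at 0.17 ± 0.06, Foxf1, a gene of lateral mesoderm, at 0.09 ± 0.09 and a region of Sox1 whose nearest probe is at -3329 bp, a neuroectoderm factor, at 0.06 ± 0.10. The 92 members on other chromosomes had a median of 0.05, 12 of them towards labelled TKO and 32 towards labelled J1. Over all regions of those chromosomes, 32% were towards labelled TKO and 24.4% towards labelled J1. Foxf1 no longer passed without array 1, 2, 3, 4, 5 or 7 (limma adjusted p of 0.0581 to 0.112). Irx5 and Irx3 thus lay on a chromosome whose regions as a whole were higher in ratio, and that part of their ratio was not separated. Of other developmental transcription factors, 65 regions were tested, 6 of them towards labelled TKO and 29 towards labelled J1, with a median of 0.08, and of Polycomb genes 21, with 3 and 7 and a median of 0.05. Of 19 regions of partners and co-repressors, 3 were called towards labelled TKO, with Ssbp2 at -0.31 ± 0.15, and 9 towards labelled J1, with Ssbp4 at 0.31 ± 0.04 (SD, n = 7). Beside these list counts, 31.2% of all regions lay towards labelled TKO and 25.7% towards labelled J1.

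The ratio changed with the distance from the start. Between 1200 and 1000 bp upstream, member probes averaged -0.06 ± 0.04 on part 1 and -0.09 ± 0.07 on part 2 (SD over 7 arrays), against -0.13 ± 0.04 and -0.14 ± 0.04 for all promoters. Within 200 bp downstream of the start they averaged 0.08 ± 0.03 and 0.11 ± 0.06, against 0.02 ± 0.02 and 0.04 ± 0.04 for all promoters. In every 200-bp bin on both parts the mean of the members was above that of all promoters, and in both sets the bin farthest upstream was the lowest. Bins held 12 to 38 member probes. Member probes were unevenly spread over signal. In the highest quartile of signal over all probes lay 82 on part 1 and 94 on part 2, and in the lowest 42 and 37. In the highest quartile of part 1 the median ratio was 0.076 for member probes and 0.082 for all probes. In every other quartile of both parts the members' median was the higher one. The part of signal in the members' offset was not tested.

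**Figure D3:**
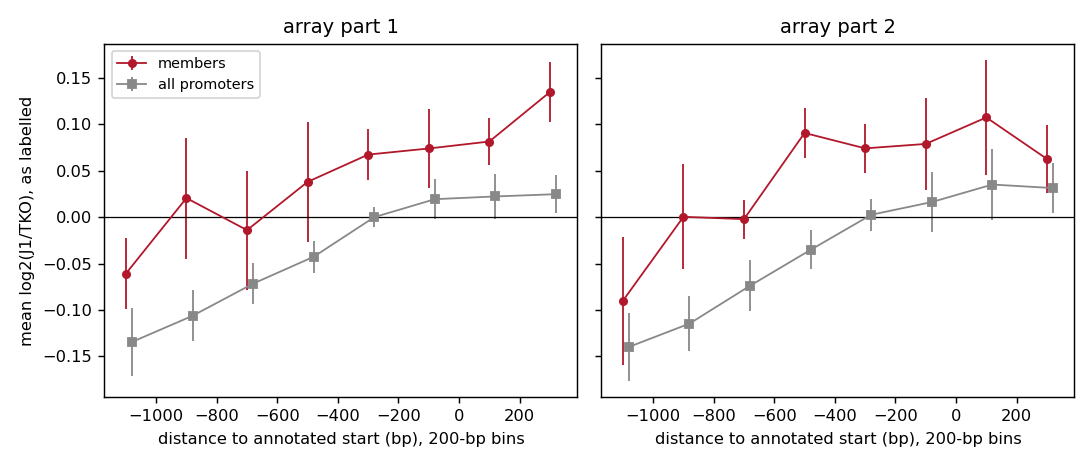
Mean MeDIP log2(J1/TKO) as labelled of probes in 200-bp bins of distance to the annotated start, for members (circles) and all promoters (squares), on array part 1 (left) and part 2 (right); bars are SDs over 7 arrays. On both parts members lie above all promoters in each bin, and the lowest bin is the one farthest upstream.

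Within single promoters, probes near the start were set against far ones. With the classes chosen first, within 700 bp against over 1200 bp, only 2 member regions had at least 2 probes in each: Nkx2-9 had a near-minus-far difference of 0.25 ± 0.23 (SD, n = 7; limma adjusted p = 0.0217) and Irx3 one of 0.05 ± 0.09 (limma adjusted p = 0.468), where 43.3% of all 845 regions were above 0 and 11.7% below. Nkx2-9 no longer passed without array 4, 6 or 7 (limma adjusted p of 0.0572 to 0.0648). With narrower classes chosen after seeing the tiling, within 350 bp against over 600 bp, 53 member regions were tested: 13 were above 0 and 5 below, where 36.2% and 9.52% of all 7438 regions were. The median difference was 0.09 in the members and 0.12 in all regions. The members' shares were thus below the background above 0 and near it below 0.

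Tbx18 had the largest such difference among members, from 0.42 to 1.59 with a median of 0.91 (mean 1.02 ± 0.41, SD; limma adjusted p = 0.000156). Its 5 probes ran from -0.89 ± 0.39 at -975 bp from the start and -1.03 ± 0.50 at -610 bp to 0.39 ± 0.10 at 201 bp, with all 7 arrays below 0 at both upstream probes and all 7 above 0 at the downstream one. Foxd1 had a difference of 0.72 ± 0.25, and its probes at -1061 and -792 bp had ratios of -0.81 ± 0.37 and -0.50 ± 0.23. Tbx21 had a difference of 0.69 ± 0.12, with -0.77 ± 0.23 at -1029 bp, -0.34 ± 0.10 at -751 bp and 0.23 ± 0.18 at 67 bp. In these 3 promoters the low mean of the region came from the far probes, and the near probes averaged 0.06, 0.06 and 0.13. Nkx2-5 followed with a difference of 0.48 ± 0.22, Tbx22 with 0.40 ± 0.16 and Dlx3 with 0.37 ± 0.17. Differences in the other direction were those of Pax2 at -0.26 ± 0.22, Foxp4 at -0.20 ± 0.08, Lhx4 at -0.18 ± 0.10 and Pax7 at -0.17 ± 0.13, with 6 or 7 of 7 arrays below 0.

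The far probes that set Tbx18 and Foxd1 apart were dim. At -610 bp of Tbx18 the median processed signal was 98.1 units in the channel labelled TKO and 46.5 in that labelled J1, while at 201 bp it was 1020 in the channel labelled TKO and 1288 in that labelled J1. At -1061 bp of Foxd1 it was 182 in the channel labelled TKO and 105 in that labelled J1. Over all probes of part 2, those in the lowest quartile of signal, up to 354 units, had a median ratio of -0.14 and those in the highest quartile one of 0.09; for member probes the medians were -0.05 and 0.10. With normexp correction the near-minus-far difference was 0.19 for Tbx18, 0.00 for Foxd1 and 0.23 for Tbx21, none of which passed (limma adjusted p = 0.421, 0.996 and 0.177). Over probes above background in both channels, the difference of Foxd1 stayed at 0.72 (limma adjusted p = 5.52e-06). Tbx18 and Tbx21 had no value over those probes. At -751 bp of Tbx21, where signals were 3132 in the channel labelled TKO and 2691 in that labelled J1, the ratio was -0.38 ± 0.18 with normexp, against -0.34 ± 0.10 without. Differences that passed with either correction were those of Tbx22, Foxk1, Pax3, Sox3 and Lhx6 above 0 and of Lhx4 below 0.

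**Figure D4:**
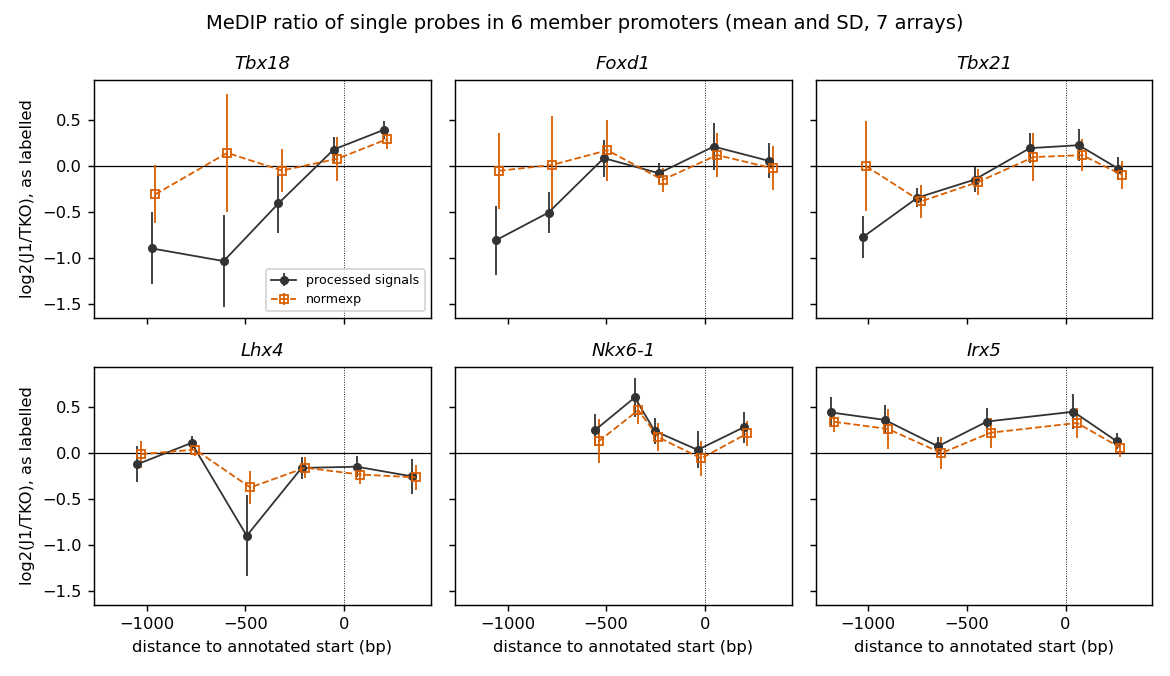
MeDIP log2(J1/TKO) as labelled of single probes against distance to the annotated start in 6 member promoters; filled circles use Agilent's processed signals and open squares normexp correction, with means and SDs over 7 arrays. The far upstream probes of Tbx18, Foxd1 and Tbx21 lie between -1.03 and -0.34 in the first, and nearer to 0 in the second, except the probe at -751 bp of Tbx21.

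RNA and MeDIP values were both at hand for 31 members with a region within 1000 bp of the start. Of these members, 8 passed in both assays. Calls were common in either assay by itself. In RNA, 16.9% of the whole background rose and 15.8% fell. In MeDIP, 31.2% of the background regions leaned to labelled TKO and 25.7% to labelled J1. The share of all genes that pass in both was not counted, so an excess among the members was not tested. Tbx21, Tbx18 and Nkx6-2 were higher in TKO RNA with their regions on the labelled TKO side, and Sox11 and Tbx3 were lower in TKO RNA with their regions on the labelled J1 side, at 0.15 ± 0.08 and 0.18 ± 0.07. Lhx2 and Irx2 were higher with their regions on the labelled J1 side, at 0.11 ± 0.10 and 0.13 ± 0.06, and Sox13 was lower with its region on the labelled TKO side, at -0.08 ± 0.06. The MeDIP calls were lost without array 1, 3, 4 or 6 for Lhx2 (limma adjusted p of 0.0626 to 0.0650) and without array 3, 4, 5 or 7 for Sox13 (0.0968 to 0.114). As given above, the MeDIP call was also lost for Tbx18 with normexp correction and for Tbx21 over probes above background in both channels. The RNA calls of Nkx6-2 and Tbx3 were lost with Agilent's processed signals. When arrays were centred on their medians in place of loess, Tbx21 alone of the 8 kept its RNA call. As given above, leaving out single arrays also cost the RNA calls of Irx2, Tbx3 and Sox13, and a dye term that of Sox13. Of the other members higher in RNA, 8 had regions that passed on neither side, among them Foxc1 at -0.02 ± 0.06 and Nkx2-5 at -0.01 ± 0.11. Over these 31 genes, which share the same cultures and arrays, Pearson's r between the RNA log2(TKO/J1) and the MeDIP log2(J1/TKO) was -0.43. Spearman's rho was -0.39. Both are descriptions with no test and no value over all genes beside them, and both turn sign if the MeDIP dyes are exchanged.

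**Figure D5:**
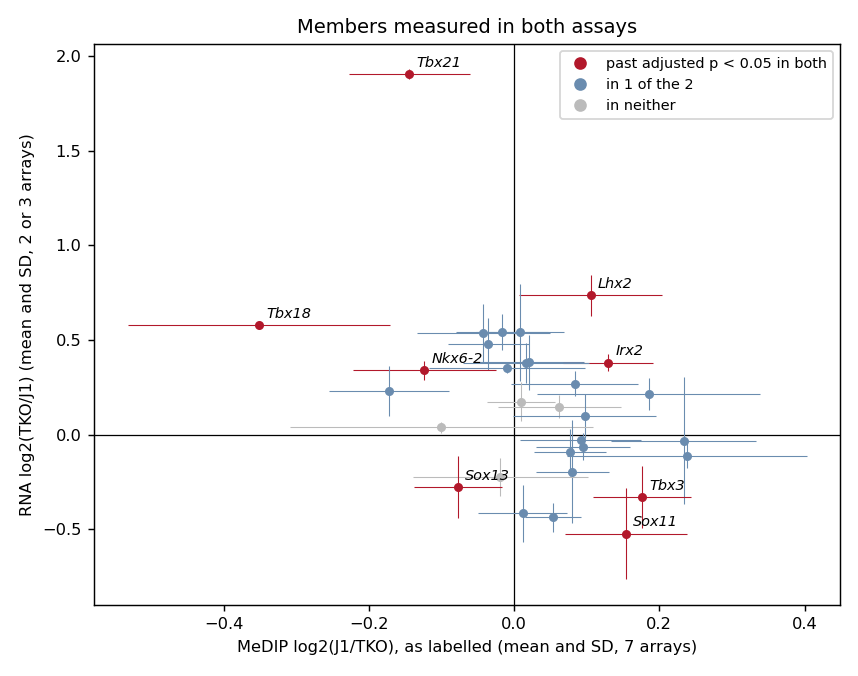
RNA log2(TKO/J1) against MeDIP log2(J1/TKO) as labelled for the 31 members measured in both assays; points are means and bars SDs, over 2 or 3 arrays for RNA and 7 for MeDIP, with names for the 8 that passed in both. Tbx21 and Tbx18 are at the upper left, Tbx3 and Sox11 at the lower right, and Lhx2 and Irx2 at the upper right.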

How the data were processed

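RNA and MeDIP material of TKO and J1 cells were compared on Agilent 2-colour arrays, whose number limits the precision. The deposited intensity values per spot came from Agilent Feature Extraction; the submitters' processing notes name version 8.5, and the file headers give 8.5.1.1 for the MeDIP arrays and expression array 1 and 7.5.1 for expression arrays 2 and 3. The authors also deposited log10 ratios; for MeDIP these differ from the scanner's log ratio by at most 0.005, and for RNA their mean over 3 arrays correlated with the fitted ratio over spots at r = 0.85. These log10 values were used only for that check.

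RNA used normexp (offset 50) and loess, the brightest probe of a gene, and probes well above background in TKO or in J1 on all 3 arrays. MeDIP used processed signals centred on each array's median, and the mean over the probes of a region (gaps up to 2000 bp, at least 3 probes). Both were fitted across all features with limma 3.58.1 in R 4.3.3, two-sided, with Benjamini-Hochberg adjustment, and checked on simulated data. Probes were named through RefSeq accessions (22072 of 41174 on the expression array) or by the file's own name; Nkx names are cut at the hyphen on the promoter arrays and were completed by accession. A probe named 3230402J05Rik that RefSeq assigns to Foxn2 was not counted as a member. The build behind the probe coordinates was not stated in labels or headers, so only distances to the start are printed.

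Members and lists were chosen with earlier results of these data known. Named in the text are members past 2-fold or, for MeDIP, 0.5, then those farthest from 0 among those past adjusted p with 1 sign on all arrays, the member with the largest RNA ratio of each family, regions on chromosome 8, members that passed in both assays, and up to 4 genes of each list; a few such genes are not reported here, though the counts include them, and unchanged relatives were named after their values were seen. Alternatives were other background corrections, centring, filters, probe summaries, distance classes and each array left out.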

Additional observations from a re-analysis of the deposited data

Results flagged for a closer look

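Of the named member regions, 2 had 1 array far from the other 6 by Dixon's ratio, which chance flags in about 1 of 20 groups. The MeDIP log2(J1/TKO) of Foxd1 on array 6 of part 2 was -0.35, against -0.20 to -0.11 on the other 6 arrays. That of Nkx6-2 on array 1 of part 1 was 0.076, above 0, against -0.23 to -0.10 on the other 6 arrays.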

How the results depend on the processing

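No paired analysis was possible because each array already holds both lines and the numbers shared by parts 1 and 2 mark arrays that are never compared. All 19 RNA results for named genes kept their direction under each alternative run, but only 2 kept their call under all; of the 26 named MeDIP regions 14 did, and 2 reversed with normexp and median centring: Tbx18 to 0.032 and Foxd1 to 0.014. The near-minus-far difference of Irx3, 0.05, became -0.0039 with the 350 and 600 bp classes, with all probes or those above background, and -0.019 with those classes and normexp. The 350 and 600 bp classes and the 1000 bp limit were chosen after seeing the data. Members higher in TKO RNA numbered 14, 1 with median centring and 8 to 17 with 1 array left out (9 without array 1, 8 without array 2); members lower numbered 6, 0 with median centring, 2 with a dye term, for which 28 members and 7664 genes could be fitted, and 3 to 8 with 1 array left out (3 without array 1). On the MeDIP arrays, 35 member regions on the labelled J1 side became 13 with normexp and 24 to 33 with 1 array left out, and 12 on the labelled TKO side became 11 to 13; exchanging the dyes gave 12 and 35. The 1 region past 0.5 became 0 with normexp, with normexp and loess, and within 1000 bp of the start, and moved to the labelled J1 side, as 1 against 0, with exchanged dyes. The 1 near-minus-far call above 0 was 0 with the 500 and 1500 bp classes, with normexp, and without array 4, 6 or 7 (range 0 to 1); the 350 and 600 bp classes gave 13 above 0 and 5 below, 6 and 1 with normexp as well, and 14 and 5 with probes above background. A random slide block, fitted for part 2 alone since part 1 has 1 pair, left 12 and 36. The cause of these changes was not tested.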
